A study of Homo sapiens with 6 samples.

Results

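The death receptors and the caspase-8 complex were examined in A549 cells after knock-down of KMT9α. The set holds 10 genes chosen by name, the receptors TNFRSF10A, TNFRSF10B, TNFRSF10C, TNFRSF10D, TNFRSF21 and FAS, the adaptor FADD, the initiator caspases CASP8 and CASP10, and the regulator CFLAR, out of 23180 gene symbols in the count table. A549 is a human lung adenocarcinoma cell line, labelled here as wild type and at passage 11. In the control group, 3 biological replicates were treated with a control siRNA (siControl). In the knock-down group, 3 biological replicates were treated with siKMT9α#1, an siRNA against KMT9α, the histone methyltransferase subunit encoded by N6AMT1. Per the study's methods, the siRNA was used at 65 nM and RNA was taken 3 days after transfection. Each sample's RNA-Seq counts summed to between 13740097 and 19832395.5 over genes. Because 1 siRNA was used against KMT9α, effects of losing KMT9α and effects of that siRNA on other transcripts cannot be told apart in these samples.

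Death receptors are cell-surface proteins of the TNF receptor family that carry an intracellular death domain. When TRAIL binds TNFRSF10A (DR4) or TNFRSF10B (DR5), or Fas ligand binds FAS, the receptor recruits FADD, and FADD recruits procaspase-8 and procaspase-10, which activate each other in this complex. CFLAR (c-FLIP) resembles caspase-8, joins the same complex and can hold it in check, while the active initiator caspases cleave further proteins of the death pathway, among them the BCL2-family protein BID. TNFRSF10C (DcR1) and TNFRSF10D (DcR2) bind TRAIL without a complete death domain and are known as decoy receptors.

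Of the 6 receptor genes 5 were higher after knock-down, and so was CFLAR. The initiator caspase CASP8 was slightly lower, and TNFRSF10C, FADD and CASP10 did not pass the test. Of the 10 genes, 6 rose, 1 fell and 3 did not pass the test, at an adjusted p under 0.05 in edgeR's quasi-likelihood test across all 13877 genes tested. These samples differ at many genes, and the same rule called 37.1% of all genes tested higher and 38.5% lower. At the study's stricter threshold of P under 1e-08 with a log2 fold change over 0.26 in size, 4 of the 10 were higher and 0 lower, against 13.5% and 10.7% of all genes tested. Passing this threshold refers to the fit used here, where 3357 genes passed, and not to the study's own calls. With edgeR's likelihood-ratio test 5962 genes passed. The knock-down samples did not overlap the control samples for 7 of the 10 genes, and for 77.0% of all genes tested. The median log2 fold change was 0.31 over the 10 genes and -0.014 over all genes tested. N6AMT1 itself had 10.2, 10.8 and 11.5 CPM (counts per 1000000 counts of the sample, scaled by TMM factors) in siControl and 2.87, 3.22 and 3.35 in siKMT9α#1. Its log2 fold change was -1.77 with a standard error (SE) of 0.12 and an adjusted p of 1.43e-10. In bulk RNA a different share of cells and a different amount of RNA per cell cannot be told apart.

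**Figure D1:**
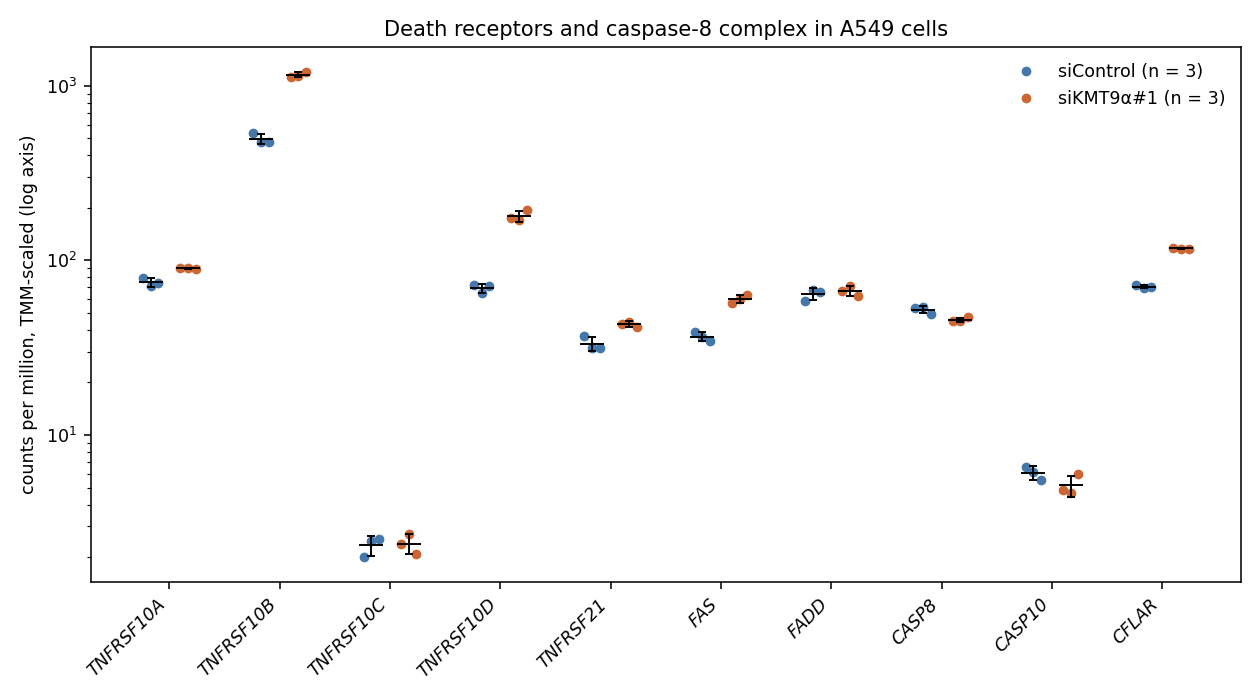
CPM of the 10 genes on a log axis in each of 3 siControl (blue) and 3 siKMT9α#1 (orange) samples of A549 cells, with the mean and SD in black. The 2 groups are apart for TNFRSF10A, TNFRSF10B, TNFRSF10D, TNFRSF21, FAS, CASP8 and CFLAR and overlap for TNFRSF10C, FADD and CASP10.

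Among the TRAIL receptors that signal death, TNFRSF10B rose 2.33-fold and TNFRSF10A 1.20-fold. TNFRSF10B (NM_003842, hg19 chromosome 8, 22877648 to 22926700) had 537, 478 and 475 CPM in siControl and 1130, 1138 and 1204 CPM in siKMT9α#1. The lowest knock-down sample lay far above the highest control sample, and the log2 fold change was 1.22 (SE 0.055, adjusted p = 1.69e-13). TNFRSF10A (NM_003844, chromosome 8, 23048970 to 23082680) had 79.7, 70.9 and 74.4 CPM in siControl and 90.1, 90.3 and 89.3 CPM in siKMT9α#1. The groups did not overlap, but the change was small, with a log2 fold change of 0.26 (SE 0.052, adjusted p = 1.72e-04), and it did not pass the study's threshold. Within each sample TNFRSF10B exceeded TNFRSF10A per kilobase of transcript by 2.82, 2.82 and 2.67 times in siControl and by 5.25, 5.28 and 5.64 times in siKMT9α#1.

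Of the decoy receptors, TNFRSF10D rose 2.58-fold, while TNFRSF10C was low in both groups and did not pass the test. TNFRSF10D (NM_003840, chromosome 8, 22993104 to 23021540) had 72.5, 64.9 and 71.1 CPM in siControl and 174, 169 and 193 CPM in siKMT9α#1. This was the largest fold change of the 10 genes, with a log2 fold change of 1.36 (SE 0.059, adjusted p = 9.44e-14). TNFRSF10C (NM_003841, chromosome 8, 22960327 to 22974950) had 1.99, 2.47 and 2.55 CPM in siControl and 2.38, 2.70 and 2.09 CPM in siKMT9α#1. Its groups overlapped, and at 31.5 to 49.0 counts per sample the 95% interval of the log2 fold change ran from -0.37 to 0.41 (adjusted p = 0.939). The sum of both decoys relative to the sum of both death-signalling TRAIL receptors, per kilobase, was 0.125, 0.129 and 0.139 in siControl and 0.157, 0.153 and 0.165 in siKMT9α#1. All 3 knock-down ratios lay above all 3 control ratios, and nearly all of the decoy sum was TNFRSF10D. The 4 TRAIL receptor genes lie within 205 kb of each other, and their log2 fold changes ran from 0.020 to 1.36.

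FAS, the receptor for Fas ligand, rose 1.64-fold. FAS (NM_000043, chromosome 10, 90750288 to 90775542) had 39.1, 36.3 and 34.5 CPM in siControl and 57.0, 59.8 and 63.1 CPM in siKMT9α#1, with no overlap. Its log2 fold change was 0.71 (SE 0.062, adjusted p = 3.73e-09), and it passed the study's threshold. It did not pass that threshold with the replicate block, without siControl replicate 2 or without siKMT9α#1 replicate 2, where the log2 fold change was 0.71 to 0.72. FAS shares 860 bases of its span with ACTA2, which had 1238.5 counts over the 6 samples against 4766 for FAS, and whether the counting used strand is not given in the sources used here. TNFRSF21 (DR6), a death domain receptor best known from neurons and lymphocytes, rose 1.29-fold. TNFRSF21 (NM_014452, chromosome 6, 47199268 to 47277680) had 36.8, 31.6 and 31.4 CPM in siControl and 43.4, 44.5 and 41.3 CPM in siKMT9α#1. The groups were apart by less than the distance within the control group, with a log2 fold change of 0.37 (SE 0.069, adjusted p = 8.28e-05), short of the study's threshold.

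The adaptor FADD, which bridges receptor and caspase, did not pass the test. FADD (NM_003824, chromosome 11, 70049269 to 70053508) had 58.2, 67.8 and 66.2 CPM in siControl and 67.0, 70.9 and 62.4 CPM in siKMT9α#1. The samples of both groups were interleaved, and the 95% interval of the log2 fold change ran from -0.078 to 0.19 (adjusted p = 0.433). With offsets for GC content and transcript length the log2 fold change of FADD was 0.25 (adjusted p = 1.95e-04), so that its call depends on this choice.

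The initiator caspases were slightly lower or did not pass the test. CASP8 (NM_001228, chromosome 2, 202098166 to 202152434) had 53.3, 54.3 and 49.4 CPM in siControl and 45.1, 44.8 and 47.2 CPM in siKMT9α#1. It was the only one of the 10 genes that fell, with a log2 fold change of -0.19 (SE 0.058, adjusted p = 0.00544), a 1.14-fold difference short of the study's threshold. CASP10 (NM_032977, chromosome 2, 202047621 to 202086383), the close relative of caspase-8, had 6.58, 6.14 and 5.54 CPM in siControl and 4.84, 4.64 and 5.96 CPM in siKMT9α#1. The third knock-down sample lay within the control range, and the log2 fold change was -0.22 (95% interval -0.50 to 0.065, adjusted p = 0.152). Without that sample the log2 fold change of CASP10 was -0.35 (adjusted p = 0.0405), and with GC and length offsets it was -0.51 (adjusted p = 0.00110). Per kilobase, CASP8 exceeded CASP10 by 17.5 ± 0.92 times in siControl and by 18.2 ± 1.9 times in siKMT9α#1 (SD, n = 3), and the samples of these groups overlapped.

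CFLAR, the neighbour of both initiator caspase genes, rose 1.65-fold with the narrowest spread of the 10 genes. CFLAR (NM_003879, chromosome 2, 201980877 to 202037411) had 72.1, 69.8 and 70.5 CPM in siControl and 118, 117 and 117 CPM in siKMT9α#1. Its log2 fold change was 0.73 (SE 0.047, adjusted p = 4.27e-11), past the study's threshold. With offsets for GC content and transcript length it was 0.28 (adjusted p = 5.61e-06), the largest reduction among the members called, and CFLAR then did not pass the study's threshold. These offsets took the length of 10604 bases for CFLAR, although reads were much denser on its short transcript NM_001127184 of 1287 bases. Offsets with the short length were not computed, so how far the reduction rests on that length was not tested. CFLAR, CASP10 and CASP8 lie within 172 kb on chromosome 2, and of these 3 neighbours CFLAR was higher, CASP8 lower and CASP10 not called. The antisense transcript CFLAR-AS1 overlaps the span of CFLAR by 17504 bases and had 741 counts over the 6 samples against 9230.5.

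The level of CFLAR relative to CASP8 was therefore higher in every knock-down sample. Per kilobase the ratio was 0.369, 0.351 and 0.389 in siControl and 0.711, 0.712 and 0.674 in siKMT9α#1, that is 0.370 ± 0.019 against 0.699 ± 0.022 (SD, n = 3). These ratios take the full length of 10604 bases of the CFLAR transcript, which lowers them, since reads were much denser on the short CFLAR transcript NM_001127184 of 1287 bases (5484 counts per kilobase over the 6 samples, against 870 on NM_003879). Taken on that short transcript the ratio to CASP8 was 2.34, 2.32 and 2.48 in siControl and 4.60, 4.57 and 3.96 in siKMT9α#1. With either transcript the knock-down samples stood above the control samples. These ratios carry no offsets for GC content and transcript length and were not computed with them. With such offsets, which took the full length of 10604 bases for CFLAR, its log2 fold change was 0.28 in place of 0.73. That of CASP8 was -0.20 in place of -0.19. The count of the short transcript relative to the long one was 0.781 ± 0.018 in siControl and 0.759 ± 0.040 in siKMT9α#1, with overlapping samples. These transcripts share exons and reads, so this ratio does not measure the c-FLIP short and long forms separately.

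**Figure D2:**
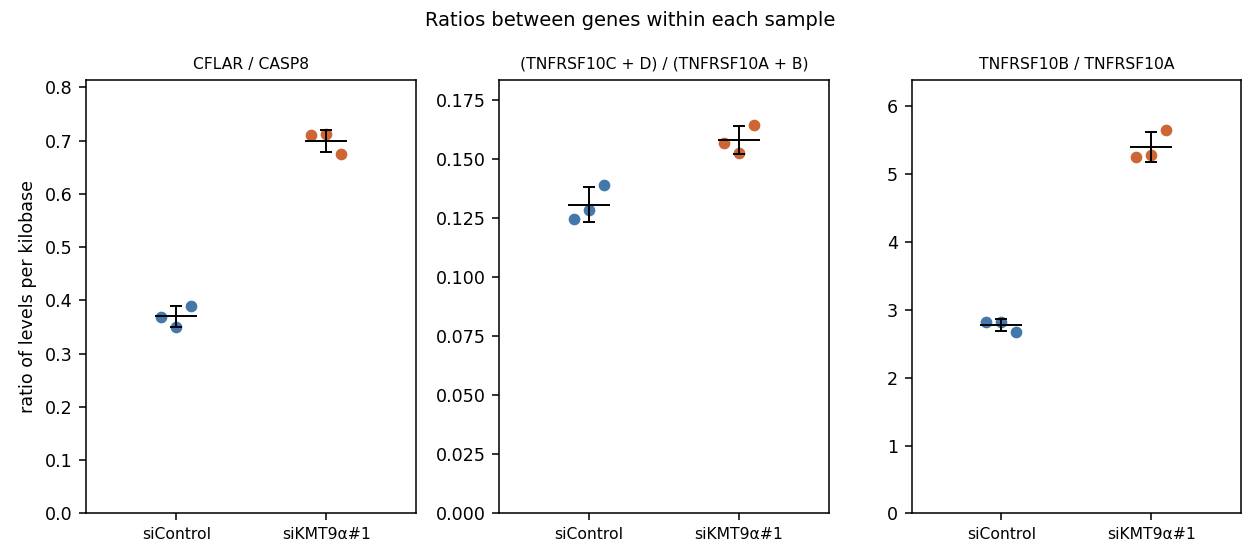
Ratios between levels per kilobase of transcript within each sample, on axes that start at 0, for 3 siControl (blue) and 3 siKMT9α#1 (orange) samples with mean and SD in black. No offsets for GC content and transcript length were applied. In all 3 panels the knock-down samples stand above the control samples, from 0.370 to 0.699 on average for CFLAR to CASP8 and from 2.77 to 5.39 for TNFRSF10B to TNFRSF10A.

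Transcripts of 1 gene gave like fold changes. The log2 fold changes ran from 0.68 to 0.86 over 8 CFLAR transcripts, from 0.71 to 0.75 over 7 FAS transcripts, from -0.19 to -0.17 over 6 CASP8 transcripts and from -0.22 to -0.12 over 6 CASP10 transcripts. The 3 TNFRSF10B transcripts all had 1.22. Since transcripts of a gene share most of their reads, these are not independent measurements, and the other 5 genes have 1 transcript each in the table.

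Set against each other per kilobase of transcript, the 10 genes kept a similar order in both groups, with TNFRSF10B first by a wide margin. In siControl the level was 120 ± 8.5 CPM per kilobase for TNFRSF10B, 43.3 ± 2.5 for TNFRSF10A and 34.6 ± 2.8 for FADD (SD, n = 3). TNFRSF10D at 19.8 ± 1.1 and CASP8 at 18.1 ± 0.90 CPM per kilobase came next and overlapped between samples, so that their order is not resolved. FAS at 13.7 ± 0.85, TNFRSF21 at 9.18 ± 0.85 and CFLAR at 6.68 ± 0.11 CPM per kilobase followed, and TNFRSF10C at 1.57 ± 0.20 and CASP10 at 1.03 ± 0.089 were lowest. After knock-down TNFRSF10B stood at 280 ± 9.9 CPM per kilobase. TNFRSF10D, at 50.9 ± 3.7 CPM per kilobase, reached TNFRSF10A, at 51.9 ± 0.30, and the samples of these genes overlapped. FADD was at 36.1 ± 2.3 CPM per kilobase, FAS, at 22.4 ± 1.1, passed above CASP8, at 15.8 ± 0.46, and TNFRSF21 was at 11.9 ± 0.45, CFLAR at 11.0 ± 0.040, TNFRSF10C at 1.61 ± 0.21 and CASP10 at 0.874 ± 0.12. All other neighbours in either order were apart in every sample. The place of CFLAR rests on its transcript of 10604 bases. On the short transcript NM_001127184 its level was 43.0 ± 0.60 CPM per kilobase in siControl, overlapping TNFRSF10A, and 69.1 ± 3.8 in siKMT9α#1, second to TNFRSF10B.

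**Figure D3:**
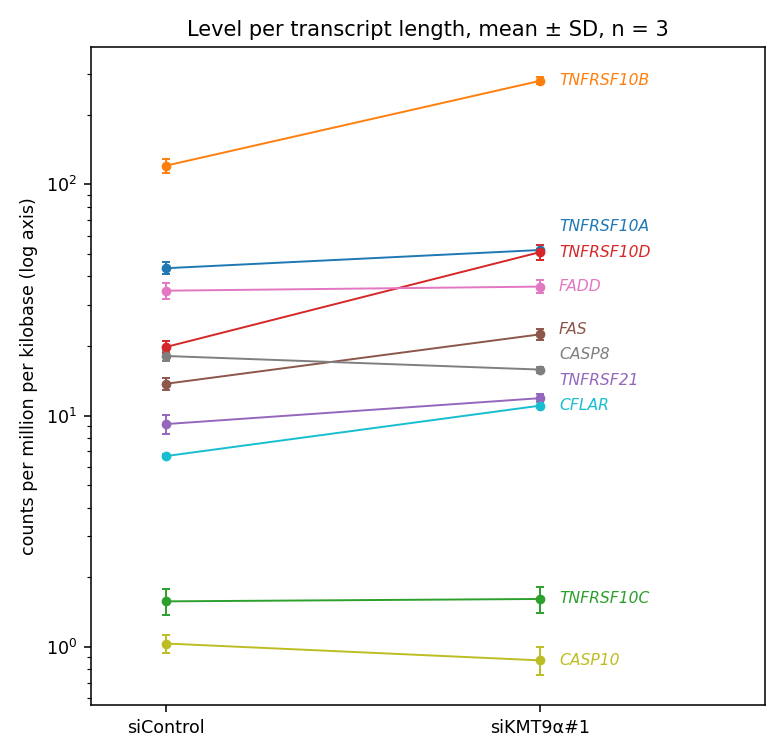
Mean level of the 10 genes in CPM per kilobase of transcript (log axis) in siControl and siKMT9α#1, with SD bars from 3 samples each. TNFRSF10D climbs from 19.8 to 50.9 to meet TNFRSF10A, FAS crosses CASP8, and TNFRSF10B stays on top in both groups. CFLAR is drawn on its transcript of 10604 bases, and on its short transcript it would stand at 43.0 and 69.1.

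The genes around the receptors were taken from 5 lists with 47 genes. Of these, 37 were tested, 16 rose, 13 fell and 8 did not pass the test, and 6 were higher and 7 lower past the study's threshold. At the adjusted p, 37.1% of all genes tested were called higher and 38.5% lower. At the study's threshold these shares were 13.5% and 10.7%. With scaling by library size alone 12 of the 37 pathway genes were called higher and 15 lower at the adjusted p. Their median log2 fold change was 0.009, and that of all genes tested was -0.014. The lists differed, from a median of -0.58 over 2 tested ligands and soluble decoys to 0.20 over the modulators of the complex.

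**Figure D4:**
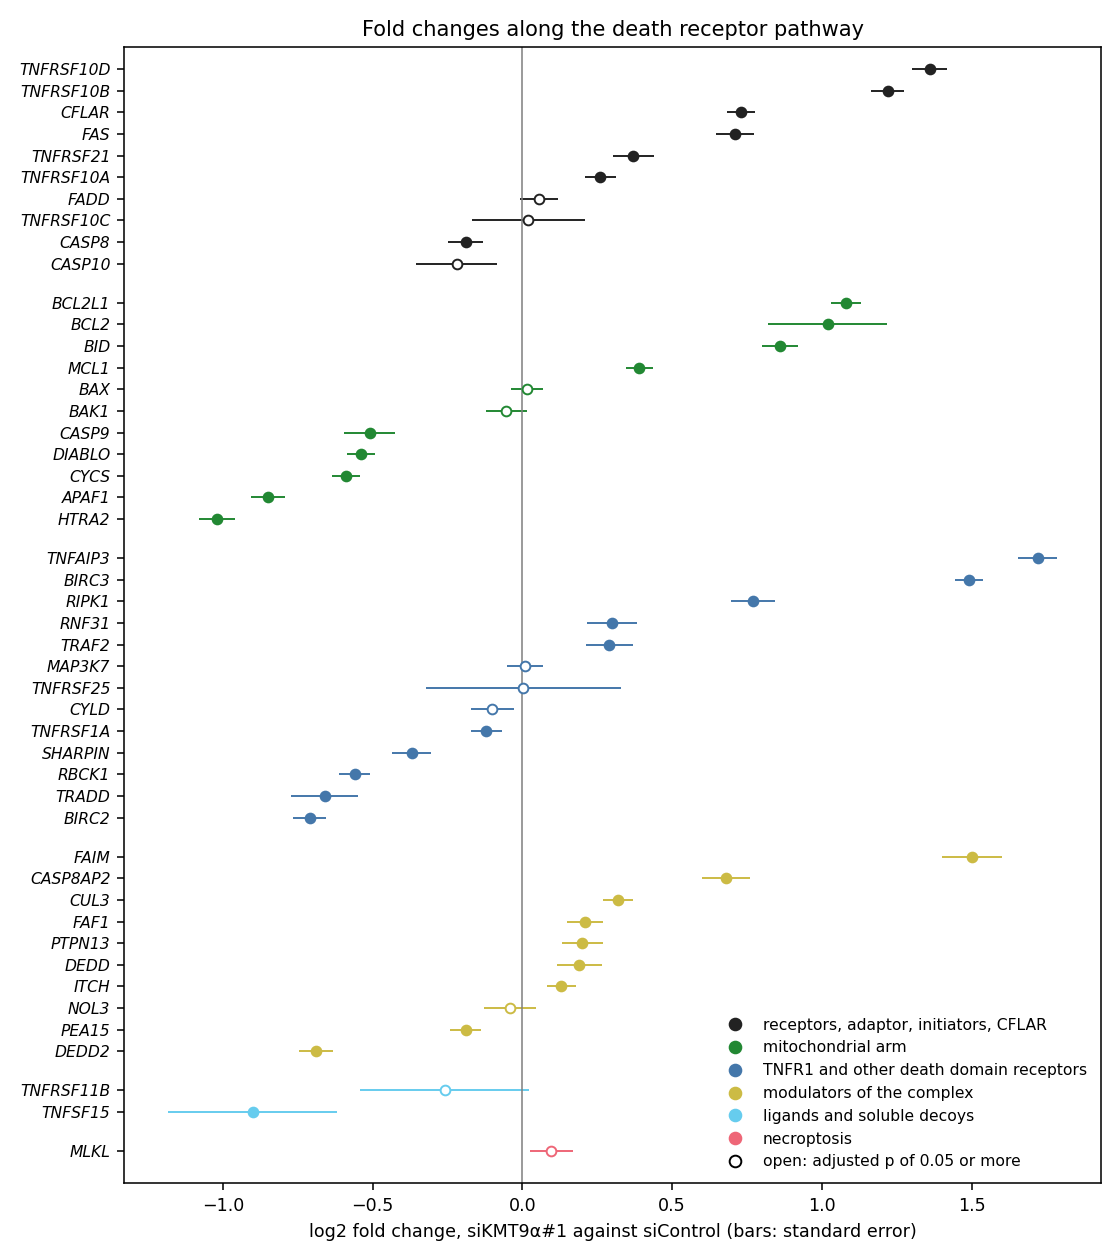
Log2 fold change, siKMT9α#1 against siControl, with standard error (SE), for the 10 genes (black) and the 37 tested genes of the surrounding pathway by list. Filled points have an adjusted p under 0.05, with TNFAIP3 farthest to the right at 1.72 and HTRA2 farthest to the left at -1.02.

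The ligands of the TRAIL receptors and of FAS were nearly absent from the RNA of both groups. TNFSF10 (TRAIL) had 0, 5 and 6 counts in siControl and 1, 0 and 5 in siKMT9α#1. FASLG (Fas ligand) had 0 counts in all 6 samples, which allows up to 0.156 to 0.227 CPM per sample (3 counts, counting error only). Of 7 listed ligands and soluble decoys 2 passed the filter on low counts, and TNFSF15 was called lower among them. Its groups overlapped in the rounded counts of the fit. In unrounded CPM they were barely apart, with 1.173 in the lowest siControl sample and 1.171 in the highest siKMT9α#1 sample.

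In the mitochondrial arm, which caspase-8 enters by cleaving BID, 4 of 11 genes rose, 5 fell and 2 did not pass the test, with a median of -0.054. These counts are close to the shares of 37.1% and 38.5% of all genes tested. BID had 28.8, 32.7 and 30.5 CPM in siControl and 56.4, 55.0 and 55.4 CPM in siKMT9α#1, a log2 fold change of 0.86 (SE 0.061, adjusted p = 1.56e-10). The inhibitors of mitochondrial permeabilization BCL2L1 and BCL2 rose by 1.08 and 1.02 on the log2 scale, the latter from only 23 to 31 counts per control sample. The genes that fell act after the mitochondrial membrane opens and include HTRA2, released from mitochondria, and APAF1, the scaffold of the apoptosome, with log2 fold changes of -1.02 and -0.85.

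The TNFR1 group, the adaptors and ubiquitin enzymes that turn a TNF signal toward survival or death, had 5 of 13 tested genes higher, 5 lower and a median of 0.003, again close to the shares of all genes tested (37.1% and 38.5%). Among the 5 lower was TNFRSF1A, with overlapping groups and a log2 fold change of -0.12 (adjusted p = 0.0359). With GC and length offsets it was 0.023 and not called. TNFAIP3 (A20), a ubiquitin-editing inhibitor of NF-κB signalling, rose from 18.7 ± 1.1 to 61.7 ± 1.8 CPM and had a log2 fold change of 1.72 (adjusted p = 1.13e-14). BIRC3 (cIAP2) rose from 64.5 ± 1.4 to 182 ± 1.4 CPM, whereas its relative BIRC2 (cIAP1) fell from 85.8 ± 1.1 to 52.1 ± 3.2 CPM (SD, n = 3). RIPK1, the kinase that links these receptors to FADD, had a log2 fold change of 0.77 (adjusted p = 1.48e-08), and TRADD, the adaptor of TNFR1, of -0.66 (adjusted p = 2.72e-05). Of the necroptosis genes that act when caspase-8 is inactive, RIPK3 had 0 counts in all 6 samples, and MLKL had a log2 fold change of 0.096 (adjusted p = 0.235).

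Of the modulators of the caspase-8 complex, 7 of 10 tested genes rose and 2 fell, against 37.1% and 38.5% of all genes tested. With scaling by library size alone 3 were called higher and 2 lower. With GC and length offsets 5 were higher and 4 lower, and PTPN13 and ITCH turned from 0.20 and 0.13 to -0.16 and -0.099 on the log2 scale. FAIM, an inhibitor of Fas-induced death, had 5.51 ± 0.34 CPM in siControl and 15.6 ± 0.59 CPM in siKMT9α#1, and CASP8AP2 (FLASH), a caspase-8 binding protein that also acts in histone mRNA processing, had 14.3 ± 1.1 and 23.1 ± 0.86 CPM. Their log2 fold changes were 1.50 and 0.68 (adjusted p = 6.99e-11 and 2.66e-07). DEDD2 and PEA15, proteins with death effector domains, fell by 0.69 and 0.19 on the log2 scale (adjusted p = 1.86e-09 and 0.00255).

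The 7-mer ACATTCA is complementary to bases 2 to 8 of the guide strand of siKMT9α#1, through which an siRNA can act on transcripts other than its target. It is shown in windows from the 3′ UTR of CFLAR, with the most copies among the 10 genes, and of TNFRSF21, with a single copy. The windows are 30 bases of the mRNA sense strand, 5′ to 3′, from GRCh37, with the 7-mer in capitals. The CFLAR windows are on the plus strand of chromosome 2, at chr2:202029798-202029827, chr2:202035712-202035741 and chr2:202036992-202037021. The TNFRSF21 window is on the minus strand at chr6:47200019-47200048.
CFLAR, first window: gggggaatacaaACATTCAgtttgtaacaa
CFLAR, second window: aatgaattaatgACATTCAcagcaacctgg
CFLAR, last window: aaatattttgatACATTCAtgaccttactt
TNFRSF21: ttatgtctcttaACATTCAcacctactttt

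The 7-mer was searched on the mRNA sense strand of 1 annotated 3′ UTR per gene. Of the 10 genes 4 held it, CFLAR with 3 copies and TNFRSF10B, TNFRSF10D and TNFRSF21 with 1 each (the windows of TNFRSF10B and TNFRSF10D are not shown), and the other 6 held 0. The 3′ UTR searched had 12714 bases for CFLAR, 2538 for TNFRSF10B, 2282 for TNFRSF10D, 1233 for TNFRSF21 and 414 to 3924 for the other 6. Reads were much denser on the short CFLAR transcript NM_001127184 of 1287 bases, and the 3′ UTR of that transcript was not searched. Of all genes tested with an annotated 3′ UTR 14.1% held it, and 0.499% held 3 or more copies. These shares were not matched for 3′ UTR length, so they do not show whether the members hold more copies than their length gives. All 4 members with the 7-mer were higher in siKMT9α#1, and so were FAS and TNFRSF10A, which hold 0 copies. Over the 12234 genes tested that have an annotated 3′ UTR, the median log2 fold change was -0.16 for genes with the 7-mer and 0.010 for genes without it. For the 313 genes with 2 or more copies it was -0.32. The medians were not matched for 3′ UTR length either. A copy is a match of letters and not a measured site, and the part of this 7-mer in the change of any of these genes was not tested.

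As a check of the labelled cell type, the epithelial keratins KRT8 and KRT18 were abundant at 502 CPM or more in all 6 samples. KRT19 had 35.3 to 61.6 CPM. The epithelial markers EPCAM and CDH1 were low. EPCAM had 3.46 to 4.25 CPM in siControl and 0.475 to 0.756 in siKMT9α#1, and CDH1 had 2.38 to 4.25 and 7.82 to 9.68. CDKN2A, deleted in A549, had 0 counts in all 6 samples. The alveolar type II markers SFTPC, SFTPB and SFTPA1 had at most 1 count per sample, NKX2-1 had 2 to 10 and NAPSA 7 to 26.5 (log2 fold change -0.93, adjusted p = 0.00663), and the leukocyte, endothelial and fibroblast markers PTPRC, CD3E, PECAM1 and COL1A2 at most 2. Of the 6 markers of other cell types, COL1A1 had 3.92 to 4.52 CPM in siControl and 2.76 to 2.88 in siKMT9α#1, and CD68, a lysosomal protein used as a macrophage marker, had 77.7 to 84.5 and 27.1 to 28.6 CPM. Of the 5 epithelial markers, KRT8, KRT18, KRT19 and EPCAM fell after knock-down, with log2 fold changes of -1.28, -0.75, -0.68 and -2.76, and CDH1 rose, with 1.34. COL1A1 and CD68 fell, with -0.61 and -1.53. The part of these changes in the results above was not tested.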

How the data were processed

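RNA-Seq was analysed for 6 A549 samples, 3 per group by the sample labels. Per the labels the replicates are biological, but whether they came from separate cultures is not stated, so that p-values measure the spread between these samples. The authors aligned reads to hg19 with STAR, counted them per RefSeq transcript with HOMER and deposited estimated counts that are not normalized. Fractional values made up 36.4%, each a multiple of 0.5. HOMER's counting options, strand setting included, are not given in the sources used here. The table's 3 columns of the authors' own comparison (fold change, p-value and adjusted p-value) were not used.

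Of 38767 rows, 1182 had neither symbol nor counts. Each of the 23180 gene symbols took the counts of the transcript whose sum over the samples was highest, rounded to whole numbers. Totals over genes were 15551778 to 18568639.5 for siControl and 13740097 to 19832395.5 for siKMT9α#1. edgeR 4.0.16 in R 4.3.3 was used with TMM factors, the low-count filter of filterByExpr and a two-sided quasi-likelihood F test, with Benjamini-Hochberg adjustment over 13877 genes. The standard error is the log2 fold change divided by the square root of F, and the 95% intervals use it. The common coefficient of variation that edgeR calls biological came to 4.47%, and here it covers the spread between these samples only. The fit was tested on simulated data. For a single gene the exact permutation test of 3 against 3 samples cannot go below p = 0.1, and it gave 0.1 for each of the 7 members called. Limits for 0 counts and the intervals cover this sampling only. Ratios have no test.

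The 10 members and the 47 pathway genes were chosen with earlier results of these data known. Named besides the members were N6AMT1, ligands, RIPK1, BID and necroptosis genes, and up to 2 genes per list with the largest change in each direction among those called with groups that do not overlap. TNFSF15, TNFRSF1A, PTPN13 and ITCH were named after their values were seen. One group of pathway genes is not reported here. GC content and 3′ UTRs came from the GENCODE annotation lifted to GRCh37, in which all 10 members and 89.6% of symbols were matched, and GC content was known for 92.9% of genes tested. Of the members' spans, 3 overlap other counted genes, RHOBTB2 by 63 bases for TNFRSF10B among them. Alternatives were the likelihood-ratio test, DESeq2 1.42.0, other scalings and filters, every transcript, GC and length offsets, the replicate block and leaving out each replicate.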

Additional observations from a re-analysis of the deposited data

How the results depend on the processing

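Over 16 alternative settings, 468 of the values compared kept their direction and side of the threshold or stayed within 1.5 times. Another 6 passed the threshold only in the alternative, 5 reversed and 1 was weaker. The log2 fold changes followed were those of 26 genes. Outside these, TNFRSF1A, PTPN13 and ITCH, called in the fit used here, also reversed with GC and length offsets. With these offsets the adjusted p was 0.0258 for PTPN13 and 0.0423 for ITCH. The 7 members called were called in the same direction in every setting. With library size alone, which shifted the median of all genes by -0.11, TNFRSF10C had a log2 fold change of -0.085, FADD of -0.050, CASP10 of -0.32 (adjusted p = 0.0372) and MLKL of -0.010, and at the study's threshold 1516 genes were higher and 1862 lower, against 1878 and 1479. With GC and length offsets FADD had 0.25 and CASP10 -0.51, with or without the replicate block, and CFLAR 0.28, while TNFRSF1A turned from -0.12 to 0.023 (0.022 with the block). Leaving out 1 replicate gave -0.067 to 0.13 for TNFRSF10C, 0.008 to 0.11 for FADD and -0.35 to -0.13 for CASP10. The count of members past the study's threshold was 4, and 3 with the replicate block, with GC and length offsets, without siControl replicate 2 or without siKMT9α replicate 2. FAS did not pass with the block or without these replicates, and CFLAR not with the offsets. The cause was not tested. Same-numbered samples did not deviate together (correlations of -0.08, 0.02 and -0.08), so the numbers were not taken as pairs. The block left 16 pathway genes higher and 12 lower against 16 and 13, 8 pathway genes past the study's threshold against 13, and 2342 genes past the study's threshold against 3357, where the likelihood-ratio test gave 5962 and no filter on low counts 6070. Depth limits what can be said of TNFRSF10C, at 31.5 to 49.0 counts per sample, and of pathway genes at or near 0 counts.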
